A study of Homo sapiens with 3 samples.

Results

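The G1 checkpoint genes are the core of the switch that decides whether a cell leaves G1 and copies its DNA. The set holds 9 genes: the CDK inhibitors CDKN1A, CDKN1B, CDKN2A and CDKN2B, the D-type cyclins CCND2 and CCND3, the kinases CDK4 and CDK6, and the retinoblastoma gene RB1. They were chosen by name, from 20163 protein-coding genes on the nuclear chromosomes of GENCODE 44 on GRCh37, whose nuclear sequence is that of hg19. ETS1 peaks were counted at a gene when their midpoint lay in the gene body or within 100 kb of it, which gave 54 distinct peaks of 26970 in the deposited list. The data are ChIP-Seq of ETS1, a DNA-binding factor of the ETS family, in SCC25, an established mesenchymal head and neck squamous carcinoma line from the tongue. All 3 ChIP samples came from this 1 line, with no treatment or genotype to compare. The C20 antibody was used in 2 of them and 501A in the remaining 1, both against ETS1. The consensus list pools the 3 samples and gives positions only, so no sample has a value of its own, the depth behind a peak is not known, and no spread between samples can be given.

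Cyclin D binds CDK4 or CDK6, and the complex phosphorylates the retinoblastoma protein, which then releases the E2F factors that switch on genes for DNA synthesis. The INK4 inhibitors block CDK4 and CDK6 directly. The CIP/KIP inhibitors act on CDK2 complexes as well, and CDKN1A is classically induced after DNA damage. CDKN2A encodes a pair of unrelated proteins from separate promoters: p16INK4a, the CDK4 and CDK6 inhibitor, and p14ARF, which restrains MDM2. ETS factors recognise a GGAA core, and in senescent fibroblasts the INK4a promoter is a known ETS target.

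The 200 bases before 7 start sites are shown because the peaks separated them: the INK4a start site had no peak, whereas the ARF, CDKN2B, CDKN1A, RB1 and CCND3 start sites lay under one, and the upstream CDKN1A start site did not. Each is written 5′ to 3′ on the strand of its gene from GRCh37, and capitals mark an ETS string on either strand, which is AGGAA or the longer forms spelled CCGGAA and CGGAAG.
INK4a, CDKN2A-201, chr9:21974857-21975056, minus strand: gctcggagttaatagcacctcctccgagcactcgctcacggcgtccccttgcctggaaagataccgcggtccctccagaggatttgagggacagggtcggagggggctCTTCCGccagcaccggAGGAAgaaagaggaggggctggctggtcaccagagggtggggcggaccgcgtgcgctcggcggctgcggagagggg
ARF, CDKN2A-214, chr9:21994392-21994591, minus strand: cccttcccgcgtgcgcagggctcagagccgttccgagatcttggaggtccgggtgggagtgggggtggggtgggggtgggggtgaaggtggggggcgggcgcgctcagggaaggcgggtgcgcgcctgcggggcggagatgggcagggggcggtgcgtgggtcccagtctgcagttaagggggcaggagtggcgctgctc
CDKN2B-201, chr9:22009305-22009504, minus strand: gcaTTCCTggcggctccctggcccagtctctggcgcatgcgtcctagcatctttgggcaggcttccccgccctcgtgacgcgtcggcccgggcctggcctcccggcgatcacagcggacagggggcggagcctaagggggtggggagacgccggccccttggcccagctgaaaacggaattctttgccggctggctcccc
CDKN1A-201, chr6:36646291-36646490, plus strand: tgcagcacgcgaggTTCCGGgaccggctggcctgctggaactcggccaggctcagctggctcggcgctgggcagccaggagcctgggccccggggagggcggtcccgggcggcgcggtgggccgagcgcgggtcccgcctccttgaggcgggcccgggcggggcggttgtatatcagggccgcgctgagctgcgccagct
CDKN1A-208, upstream start, chr6:36644037-36644236, plus strand: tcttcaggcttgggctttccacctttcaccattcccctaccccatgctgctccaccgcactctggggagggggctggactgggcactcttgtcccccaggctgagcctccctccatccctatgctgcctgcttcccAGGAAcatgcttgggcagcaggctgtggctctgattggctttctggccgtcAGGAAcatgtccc
RB1-201, chr13:48877687-48877886, plus strand: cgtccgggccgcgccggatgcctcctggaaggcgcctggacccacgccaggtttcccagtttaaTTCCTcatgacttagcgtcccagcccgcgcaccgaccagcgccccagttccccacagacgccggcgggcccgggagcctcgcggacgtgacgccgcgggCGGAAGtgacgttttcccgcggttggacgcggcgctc
CCND3, canonical start, chr6:41909547-41909746, minus strand: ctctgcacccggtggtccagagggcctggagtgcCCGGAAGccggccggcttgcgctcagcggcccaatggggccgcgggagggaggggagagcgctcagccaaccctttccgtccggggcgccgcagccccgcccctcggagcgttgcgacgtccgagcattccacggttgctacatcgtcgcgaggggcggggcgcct
The INK4a sequence carried CGGAAG on the strand opposite to the gene, first base at -92 from the start site, and AGGAA at -76, although no peak lay there. The ARF sequence, under a peak, carried none of these letters in the 200 bases shown. The whole peak of 2313 bp held 16 copies of AGGAA on either strand, none of them in its central 200 bp, and neither CCGGAA nor CGGAAG. Of all nuclear peaks, 95.3% held AGGAA somewhere in their width. Of those at a TSS, 58.0% held CCGGAA and 63.0% held CGGAAG. Copies per peak were not counted over the list.

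Every one of the 9 genes had at least 1 peak in its body and at least 2 in the body or the 100 kb on either side. By comparison, 53.4% of all coding genes had a peak in the body. In the body or the flanks, 87.5% of coding genes had at least 1 peak and 23.2% had fewer than 2. A peak midpoint lay within 500 bp of an annotated transcription start site (TSS) at 7 of the 9 genes, 77.8% (95% Wilson interval 45.3 to 93.7%, counting error only), where 53.1% of coding genes did by the same rule. The exceptions were CDKN1A and CCND2. Only 4 of the 9 were called when the canonical TSS alone was used, beside 46.7% of coding genes, since many of the peaks were at other TSSs or had their midpoint further away, and all 9 were called when any base of a peak could lie within 500 bp, beside 57.4%. Both CDKN1A and CCND2 are covered by wide peaks whose midpoints fall further into the gene. With the requirement that the base of the canonical TSS itself lie under a peak, 8 of the 9 genes were called beside 52.2% of coding genes. This rule was added after the data had been seen, here and wherever it is used below. The gene that was not called was CDKN2A, whose canonical TSS is that of INK4a. The comparison with coding genes in general depended on the rule: the interval of the 7 called by midpoint includes the share of all coding genes, as does that of the 4 called at the canonical TSS (44.4%, 18.9 to 73.3%), whereas that of the 8 with the canonical TSS base under a peak (88.9%, 56.5 to 98.0%) and that of a count of 9 (100%, 70.1 to 100%) lie above the shares given for the TSS overlap and the gene body. The difference itself was not tested.

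The density of peaks was close to that of coding genes in general. The median was 5 peaks in the body and flanks, with a range from 2 to 12, and the median over all coding genes was 4. Per 100 kb of the searched interval, the medians were 1.70 at the 9 genes and 1.60 over all coding genes. CCND3 had the most peaks (12), followed by CDK4 (11), CDKN1A and CDKN1B (8 each), RB1 (5), CCND2 and CDK6 (4 each), and CDKN2A and CDKN2B, which shared the same 2 peaks. CDK4, in an interval dense with genes, had the highest density (5.28 per 100 kb, above 89.8% of coding genes), and CDKN2A had the lowest (0.879 per 100 kb, above 31.7% of coding genes), followed by CDK6 (0.927) and CDKN2B (0.969). Counts of this size carry a large counting error, and neighbours in this order were not tested against each other.

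Of the 54 peaks, 9 were at a TSS of the gene they were counted for (16.7%, 9.02 to 28.7%) and 19 at a TSS of another gene (35.2%, 23.8 to 48.5%). A further 7 lay in introns of the 9 genes (6.42 to 24.4%), 15 in the body of another gene (27.8%) and 4 were intergenic (7.41%). None had its midpoint in an exon of the 9 genes away from a TSS. In all, 28 of the 54 peaks were at some TSS (51.9%, 38.9 to 64.6%), and 43.3% of the nuclear peaks of the whole list were. Thus, with flanks of 100 kb, most of the 54 peaks were classed at or in another gene. The same share was not counted for other coding genes. It depended on the flank: with 10 kb, 14.3% were at another TSS and 0% in another gene. The 19 include the peak over the canonical CCND2 TSS, called at the antisense gene CCND2-AS1, and the RCBTB2 TSS peak inside the RB1 body.

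**Figure D1:**
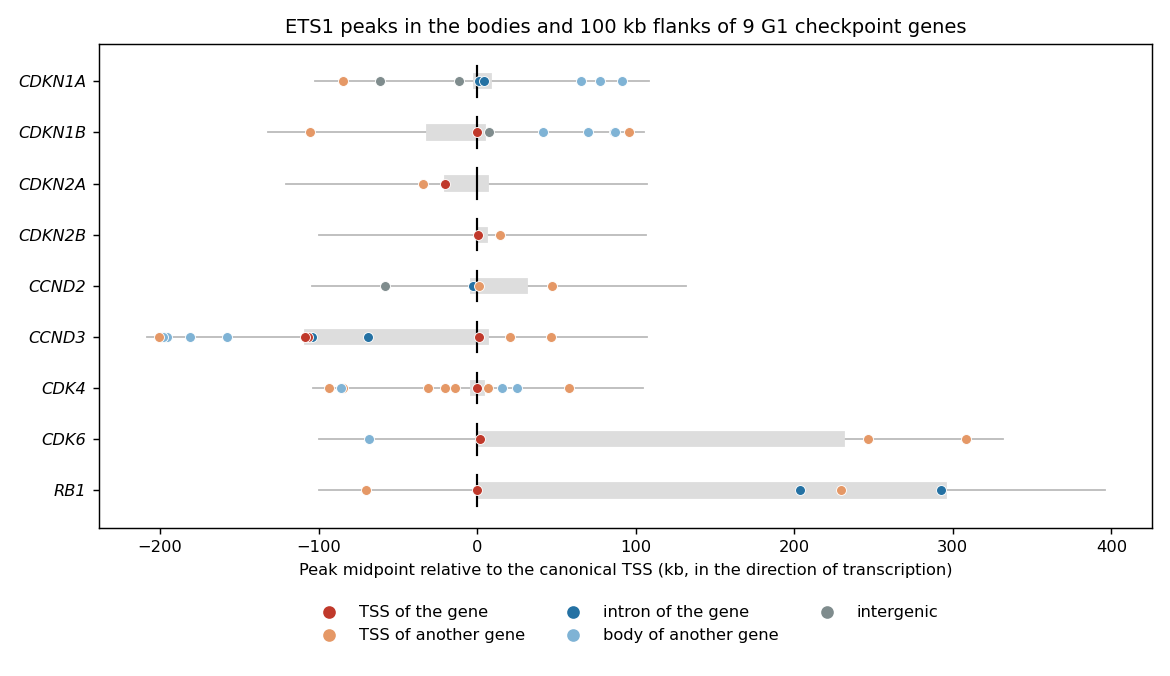
Positions of the ETS1 peaks counted at each of the 9 genes. The x axis is the distance of the peak midpoint from the canonical TSS in kb, in the direction of transcription, grey boxes are gene bodies, grey lines are the 100 kb flanks, black ticks are canonical TSSs, and colours give the position of the peak. CDKN2A and CDKN2B share 2 peaks, whereas CCND3 has 12 and CDK4 has 11, and the body of CDK6 holds a peak only at its start.

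Start sites within a gene differed in whether they lay under a peak. The 9 genes have 83 annotated TSSs, of which 54 lay under a peak (65.1%, beside 39.7% of the annotated TSSs of all coding genes) and 38 were within 500 bp of a peak midpoint (45.8%, beside 34.6%). TSSs of 1 gene share their peaks and are not independent. When TSSs at most 1000 bp apart were grouped, a distance chosen after the data had been seen, 15 of 31 groups had a TSS under a peak (48.4%, beside 21.0% of such groups over all coding genes), and each gene had at least 1 such group.

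**Figure D2:**
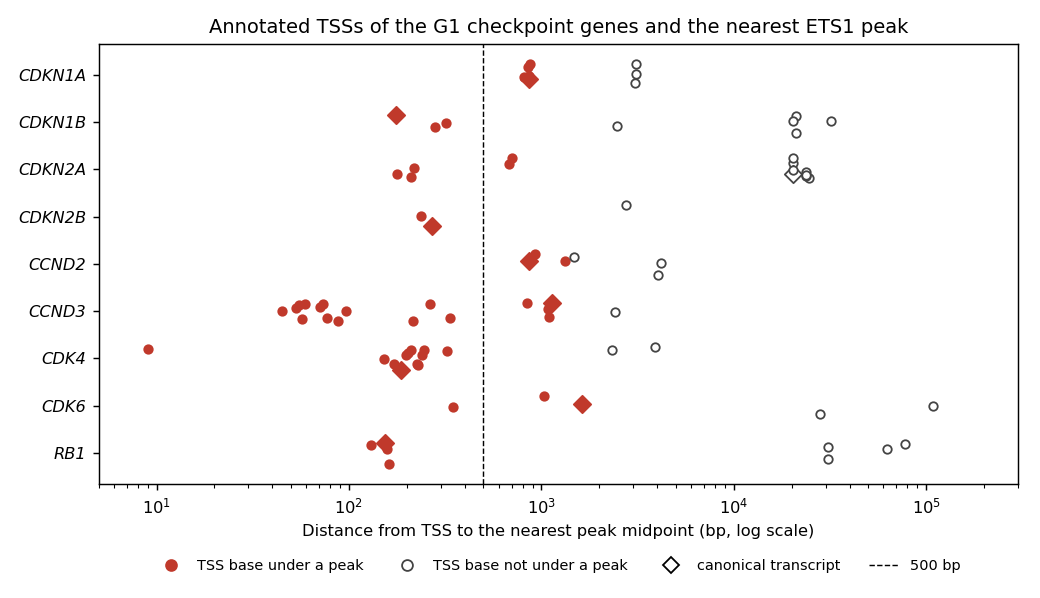
Distance from each of the 83 annotated TSSs of the 9 genes to the nearest peak midpoint, in bp on a log scale. Filled symbols are the 54 TSSs under a peak, open symbols are the others, diamonds are canonical transcripts and the dashed line is at 500 bp. The canonical CDKN2A TSS is the only open diamond, and the TSSs of CDKN1A and CCND2 under a peak lie to the right of the line.

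CDKN1A (chr6:36644237-36655114, plus strand, 10878 bp) encodes the CDK inhibitor p21. Its 8 TSSs fell into an upstream group of 3 and a group of 5 that holds the canonical TSS at 36646491. A peak of 2502 bp (chr6:36646107-36648608) covered all 5 TSSs of the second group and the TSS of DINOL, a noncoding RNA transcribed from this promoter region. This peak was wider than 94.7% of all nuclear peaks. Its midpoint lay 866 bp past the canonical TSS, in the first intron, so none of the 8 TSSs was within 500 bp of it and the peak was classed as intronic. The upstream TSSs were left uncovered, with 1802 to 1870 bp between them and the edge of the peak.

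A second peak (chr6:36650139-36650953, 815 bp) lay in the same intron, 4055 bp past the canonical TSS. Intergenic peaks lay at -11393 bp and -61485 bp from the canonical TSS of CDKN1A. The nearer of them (chr6:36634843-36635353) was 511 bp wide and had CDKN1A as its nearest coding TSS, and the further one (chr6:36584632-36585380) was closest to SRSF3. Of the other 4 peaks, 1 was at the TSS of SRSF3, a splicing factor gene, and 3 lay inside CPNE5, between 65365 and 91084 bp downstream.

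CDKN1B (chr12:12838432-12875303, plus strand, 36872 bp) encodes p27, the inhibitor that holds CDK2 in resting cells. A peak of 1795 bp (chr12:12869580-12871374) had its midpoint 175 bp past the canonical TSS and covered 3 of the 8 TSSs. The 5 TSSs upstream, all of noncoding transcripts, were 1588 to 31148 bp from its edge. No other peak was in the gene body. A wide peak (chr12:12876595-12879160, 2566 bp) followed 7575 bp past the canonical TSS and covered a TSS of APOLD1, although its midpoint was outside every gene and it was classed as intergenic. The body of APOLD1 held 4 peaks of 270 to 1053 bp away from a TSS and a further one of 665 bp at the TSS of DDX47, and the TSS of CREBL2 had 1.

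CDKN2A (chr9:21967751-21995300, minus strand, 27550 bp) and CDKN2B (chr9:22002902-22009304, minus strand, 6403 bp) lie next to each other and shared the smallest number of peaks in the set. CDKN2B encodes p15INK4b, a CDK4 and CDK6 inhibitor induced by TGF-beta. Of the 13 TSSs of CDKN2A, the 5 in the distal group, which includes the ARF start site at 21994391, were all covered by a peak of 2313 bp (chr9:21993935-21996247). This peak also lay over the TSS of CDKN2B-AS1, the antisense noncoding RNA of the locus, and its midpoint was 700 bp from the ARF start site and within 500 bp of 3 of the other distal TSSs. None of the 4 TSSs of the INK4a group, the canonical one at 21974856 among them, was under a peak, and 19070 to 19109 bp separated them from the edge of the ARF peak. The 4 TSSs further into the gene were uncovered as well, at 22536 to 23469 bp. The canonical INK4a transcript therefore held no peak midpoint at all, and CDKN2A was the only member without one in the span of its canonical transcript.

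At CDKN2B, a peak of 768 bp (chr9:22008651-22009418) covered 2 of the 3 TSSs, with its midpoint 270 bp past the canonical one. It was narrower than most peaks at a TSS, of which 15.5% were narrower still. No further peak was found for 190.4 kb to the left of the ARF peak, where the next was at the TSS of MTAP, or for 247.6 kb to the right of the CDKN2B peak, where DMRTA1 was the nearest coding gene. These gaps, from the end of one peak to the start of the next, were longer than 89.4% and 92.1% of the gaps in the list. The authors kept only reads that map to 1 locus, and CDKN2A and CDKN2B share a similar exon, so the share of unique 50-mers, the read length, was counted within 500 bp of each TSS. By exact match, it was 100% at each of the 4 INK4a TSSs, and 96.7% at 3 TSSs further into CDKN2A and at 1 in CDKN2B. Matches elsewhere with mismatches were not counted, so a loss of reads through them was not tested. A list of positions shows neither signal below the threshold nor the copy number between the peaks.

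**Figure D3:**
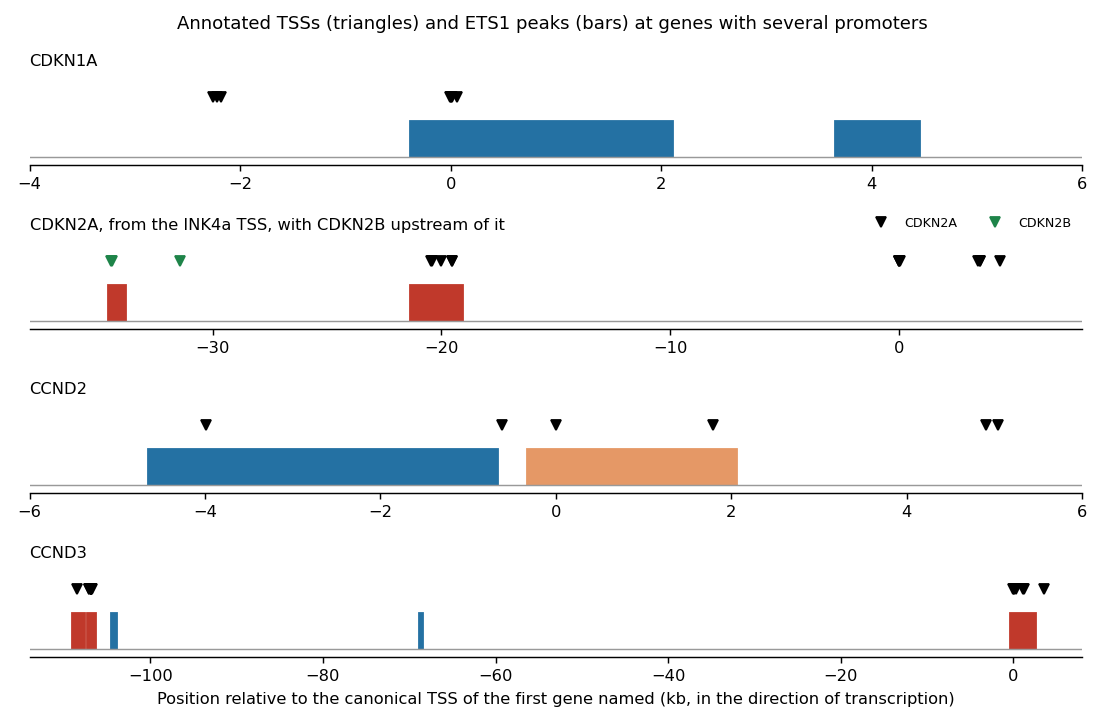
Annotated TSSs (triangles) and peaks (bars, drawn to scale) at 4 loci with several promoters, in kb from the canonical TSS of the first gene named and in the direction of transcription. Red bars are peaks at a TSS of the gene, blue bars have an intronic midpoint and the orange bar has its midpoint at a TSS of another gene. The INK4a TSSs of CDKN2A at 0 have no bar and the ARF TSSs about 20 kb upstream have 1 of 2313 bp.

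CCND2 (chr12:4378937-4414519, plus strand, 35583 bp) encodes cyclin D2. Its promoter region was covered almost without a break by a pair of wide peaks, of 3991 bp (chr12:4378277-4382267) and 2396 bp (chr12:4382595-4384990). The first covered the most upstream CCND2 TSS at 4378937 and was wider than 99.2% of nuclear peaks. The second covered the canonical TSS at 4382928 and a further TSS at 4384715, but its midpoint was 864 bp past the canonical TSS and within 500 bp of a TSS of CCND2-AS1, the antisense noncoding gene. By the midpoint rule no CCND2 TSS was called. A TSS at 4382319 lay in the gap between the peaks, 52 bp from the first and 276 bp from the second. An intergenic peak of 890 bp was 58220 bp upstream, with CCND2 as its nearest coding TSS, and a peak of 975 bp was at the TSS of TIGAR, whose product lowers glycolytic flux. Downstream of TIGAR the next peak began after 216.5 kb.

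CCND3 (chr6:41902672-42018095, minus strand, 115424 bp) encodes cyclin D3 and has promoters at both ends of a long annotated body. Peaks were found at each. A peak of 3014 bp (chr6:41906905-41909918) covered 6 TSSs at the canonical promoter, a peak of 1090 bp (chr6:42015825-42016914) covered the 10 TSSs of the main upstream group, and a peak of 1511 bp (chr6:42017124-42018634) covered the most distal TSS together with that of TAF8, a subunit of TFIID, on the other strand. Altogether 17 of the 18 CCND3 TSSs were under a peak. By exact match, unique 50-mers made up 87.3 to 100% of the windows around them. Intronic peaks of 500 bp (chr6:41977959-41978458) and 709 bp (chr6:42013414-42014122) lay at -68662 and -104222 bp from the canonical TSS. Beyond the gene, 5 peaks of 640 to 2576 bp lay in C6orf132, 1 of them at its TSS, and the TSSs of USP49 and of the BYSL and MED20 pair were occupied on the other side.

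CDK4 (chr12:58141510-58149796, minus strand, 8287 bp), the kinase that cyclin D activates, had a single peak in its body (chr12:58145183-58146632, 1450 bp). It covered 12 of the 14 TSSs, with its midpoint 186 bp past the canonical TSS at 58146093. The uncovered TSSs were 1605 and 3164 bp from its edge. The other 10 peaks within 100 kb belonged to neighbours by position: 7 were at TSSs, among them those of OS9, TSPAN31, CYP27B1, TSFM and CTDSP2 and the shared promoter of METTL1 and EEF1AKMT3, and 3 were inside AGAP2 or CTDSP2. Of these 3, a peak of 2517 bp covered a TSS of AGAP2-AS1 and a peak of 2237 bp covered a TSS of AGAP2. Their midpoints were more than 500 bp from any TSS. The nearest of the 10 was the peak of TSPAN31, 7130 bp past the CDK4 TSS.

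CDK6 (chr7:92234235-92465887, minus strand, 231653 bp), the other cyclin D kinase, carried the widest of the 54 peaks. This peak (chr7:92461991-92466534) was 4544 bp wide, more than 99.6% of nuclear peaks, and covered the canonical TSS at 92465887, the TSSs at 92464611 and 92463231 and a TSS of CDK6-AS1. It was the only peak in the gene. The next peak on the side of the gene body was at the TSS of FAM133B, past the end of CDK6, which left 242.0 kb without a peak, and 2 alternative TSSs inside the body were uncovered. Upstream, a 453 bp peak in CDK6-AS1 lay at 67931 bp.

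RB1 (chr13:48877880-49173572, plus strand, 295693 bp) encodes the retinoblastoma protein. Its promoter peak (chr13:48877332-48878751, 1420 bp) had its midpoint 154 bp past the canonical TSS at 48877887, and covered 4 TSSs and the TSS of the divergent noncoding gene RB1-DT. The 4 other TSSs, inside the body, were 30542 to 76635 bp from a peak. The annotated body held 3 further peaks, but the canonical transcript ends at 49056026 and all 3 lay past that end, in introns of longer transcripts. One of them (chr13:49106394-49107801) was at the TSS of RCBTB2, and the others were narrow (chr13:49081125-49081505, 381 bp, and chr13:49169858-49170397, 540 bp). The 178140 bp of the canonical transcript thus had a peak only at the promoter. The promoter peak was followed by 202.4 kb without a peak, and the last peak by 379.2 kb. Upstream, the TSS of ITM2B had a peak.

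Width is the only size the list gives. The 9 peaks at TSSs of these genes had a median width of 1511 bp (768 to 4544 bp), and all nuclear peaks at a TSS had a median of 1262 bp. The 19 peaks at TSSs of neighbouring genes had a median of 1375 bp. Away from TSSs by midpoint, the 26 peaks had a median of 852.5 bp, where 740 bp was the median of such peaks in the list. Some of the 26 nevertheless covered a TSS base. These were peaks of 2502 bp at CDKN1A, 3991 bp at CCND2, 2566 bp at APOLD1, 2517 bp at AGAP2-AS1 and 2237 bp at AGAP2. Peaks over 3000 bp numbered 3 of 54 (5.56%) beside 2.65% of nuclear peaks, and these were the ones at CDK6, CCND2 and CCND3. The 7 intronic peaks divided into the wide ones over the CDKN1A and CCND2 promoters and 5 others of at most 815 bp.

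**Figure D4:**
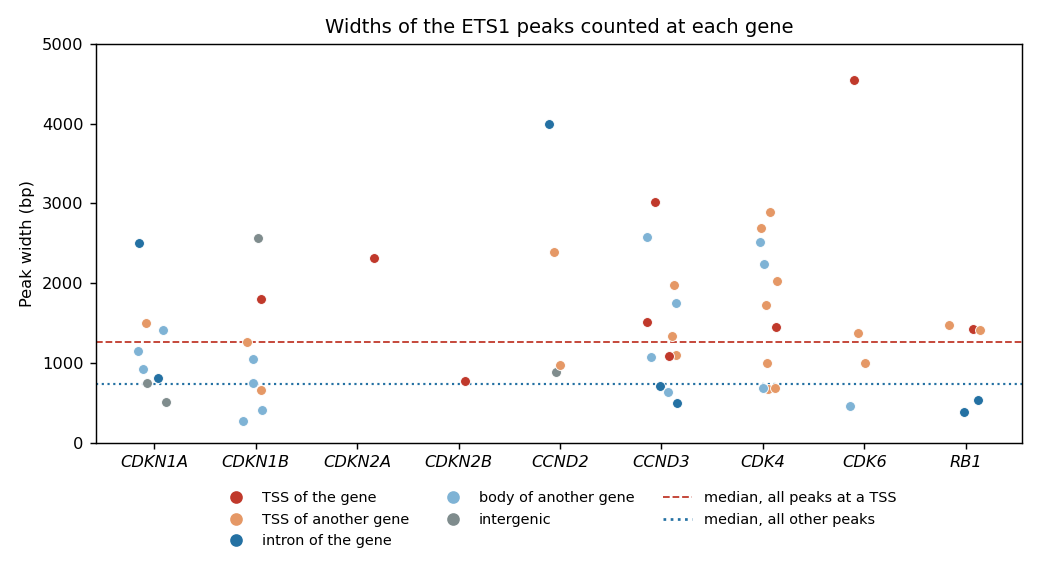
Width in bp of the 54 peaks by gene, with the position of each peak in colour and the median widths of all nuclear peaks at a TSS (1262 bp, dashed) and of all others (740 bp, dotted). The peaks shared by CDKN2A and CDKN2B are drawn once, at the gene whose TSS they cover. The widest points are the CDK6 and CCND2 promoter peaks, at 4544 and 3991 bp.

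The sequence under the peaks was searched for exact letters on both strands. In 200 bp centred on the midpoint, AGGAA was present in 29 of the 54 peaks (53.7%, 40.6 to 66.3%) and in 54.5% of all nuclear peaks. CCGGAA, the form ETS1 favours, was present in 5 (9.26%, 4.02 to 19.9%) against 11.9%, and CGGAAG, which overlaps CCGGAA where both are read as CCGGAAG and was added after the data had been seen, also in 5 (9.26%) against 13.2%. The letters GGGCGG of a GC box were in 17 (31.5%) against 30.6%, TGTGGT, the RUNX letters, in 6 (11.1%) against 12.1%, and the E2F strings, TTTCGCGC as well as the variant TTTGGCGC, were in none of the 54, where 0.501% of nuclear peaks had them. The 95% interval of each of these shares includes the share of the whole list. At TSSs, AGGAA was in 14 of 28 (50.0%) against 43.1% of such peaks, and away from TSSs in 15 of 26 (57.7%) against 63.2%. Both groups were set by midpoint, and some of the 26 covered a TSS base, as given above. For CCGGAA the counts were 3 of 28 (10.7%) against 18.3% and 2 of 26 (7.69%) against 6.97%, and for CGGAAG they were the same, against 20.2% and 7.87%. The FAM133B promoter peak was the only one of the 54 without AGGAA anywhere in its width.

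Over the 300 bases from 250 before to 50 after the canonical TSS, AGGAA was found at 5 of the 9 genes (CDKN1A, CDKN2A, CDKN2B, CCND2 and RB1) and at 58.5% of 19881 coding promoters. CCGGAA was found at CDKN1A and CCND3, and at 22.8% of coding promoters. CGGAAG was found at CDKN2A, CCND3 and RB1, and at 25.5%. Among coding promoters whose TSS lay under a peak, 38.7% had CGGAAG, and among the others 11.0% did. CDKN2A, with CGGAAG and AGGAA shown above, belonged to the latter group, while CDKN1B, CDK4 and CDK6, whose canonical TSSs lay under peaks, had none of the 3 ETS strings in this window. Over their whole width, the peaks at these canonical TSSs held 3, 5 and 13 copies of AGGAA. In the RB1 promoter shown above, CGGAAG began at -37 on the plus strand. In that of CCND3 the longer CCGGAAG began at -166.

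The AP-1 string TGAGTCA, which reads TGACTCA on the other strand, was present in the central 200 bp of none of the 28 peaks at a TSS, beside 3.72% of such peaks in the list, and of 4 of the 26 others (15.4%, 6.15 to 33.5%), beside 18.6%. Over the whole width they occurred in 16 of the 54 peaks (29.6%), beside 33.0% of nuclear peaks, and 5 of the 16 were counted at CDKN1A, 4 at CCND3, 3 at CDK4, 2 at CDKN1B and 1 each at CCND2 and CDK6. The CDKN1A promoter peak alone held 3. In 5 of the 54 peaks (9.26%, 4.02 to 19.9%) the AP-1 letters and any ETS string were at most 20 bp apart. Such a pair, counted with any of the ETS strings, was present in 9.38% of nuclear peaks. The ETS string of the pair was AGGAA in all 5 peaks, and the share of nuclear peaks paired with AGGAA alone was not counted. These 5 are shown, plus strand of GRCh37, because each holds the letters of both factors, with 1 to 19 bases between them. Capitals mark the AP-1 string and the AGGAA nearest to it, and further copies of AGGAA in the last stretch are left in lower case.
CDKN1A intron 1, chr6:36648285-36648334: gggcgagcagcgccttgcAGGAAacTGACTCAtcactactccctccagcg
CPNE5 body, chr6:36723592-36723641: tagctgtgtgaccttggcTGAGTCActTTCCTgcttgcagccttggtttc
CPNE5 body, chr6:36737361-36737409: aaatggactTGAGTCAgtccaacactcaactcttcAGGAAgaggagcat
APOLD1 body, chr12:12956333-12956382: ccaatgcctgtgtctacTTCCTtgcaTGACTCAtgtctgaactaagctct
APOLD1 body, chr12:12957086-12957134: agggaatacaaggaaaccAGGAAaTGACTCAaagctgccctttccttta
The first lay 1819 bp past the canonical CDKN1A TSS with 2 bases between the strings. In the last, 86808 bp past the CDKN1B TSS, a single base separated them. All 5 were among the peaks counted at CDKN1A and CDKN1B, which had 8 each, and the 4 outside CDKN1A were inside neighbouring genes. The 2 peaks of the CDK inhibitors CDKN2A and CDKN2B, both at a TSS, held no AP-1 string over their whole width, and neither did those of RB1. Of all nuclear peaks at a TSS, 18.6% held one. The share of the 54 peaks with an AP-1 and ETS pair, 9.26%, was close to the 9.38% of all nuclear peaks.

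The other genes of the pathway were counted from a list of 27. A peak was within 500 bp of a TSS at 20 of them (74.1%, 55.3 to 86.8%), where 53.1% of coding genes had one. Among the cyclins and their kinase, CCNE1 and CCNE2, the E-type cyclins, and CDK2 had a TSS peak, and CCNA2 did not, its nearest peak being 22471 bp away. CCND1, the third D-type cyclin, resembled CCND2: a peak covered its canonical TSS with the midpoint 1979 bp from it and 577 bp from the nearest other TSS, and it had 22 peaks in its body and flanks, the most in the list. Of the inhibitors, CDKN1C and CDKN2D had a TSS peak, while CDKN2C missed the limit with a midpoint 559 bp from a TSS that the peak covered. CDC25A, the phosphatase that activates CDK2, and the RB1 relatives RBL1 and RBL2 had one.

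E2F2, E2F4, E2F5, E2F6, E2F7 and E2F8 had a TSS peak, while E2F1 had none within 12189 bp. E2F3 had a peak over its canonical TSS with the midpoint 893 bp away. TFDP1 and TFDP2, the partners of the E2F factors, were 52476 and 23346 bp from a peak midpoint. The genes for degradation of the inhibitors and cyclins, SKP2, CKS1B, CUL1 and FBXW7, all had a TSS peak, as did MDM2 and MDM4. When the canonical TSS base was required to lie under a peak, the rule added after the data had been seen, 22 of the 27 genes were called, beside 52.2% of coding genes. Those without were CCNA2, E2F1, TFDP1, TFDP2 and CDKN1C, which has a peak at another TSS. Just inside the 500 bp limit was CCNE2, at 437 bp.

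The label of the line was checked against 9 marker genes. Of the keratinocyte genes KRT5, KRT14, KRT6A, TP63, ITGA6 and ITGB4, 2 had a midpoint within 500 bp of a TSS (KRT6A and ITGA6) and 4 had their canonical TSS under a peak, where 53.1% and 52.2% of coding genes did, and none of the lymphoid genes PTPRC, CD3E and CD79A had either. KRT14 was 1653 bp and TP63 2488 bp from a midpoint, and TP63 had 4 peaks in its body. With 2 of 6 (33.3%, 9.68 to 70.0%), the keratinocyte genes were not called more often than coding genes in general by the midpoint rule, so the list does not bear on the label of the line.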

How the data were processed

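ETS1 ChIP-Seq was performed by the authors in SCC25 cells, 2 samples with the C20 antibody and 1 with 501A. Reads of 50 bp were mapped to hg19 with Bowtie 1.1.1, keeping those with 1 locus, replicates were pooled with SAMtools 1.3, peaks were called with MACS2 against a merged input, and IDR kept peaks reproducible across the samples. The deposited list has chromosome, start and end alone: the unit of its values is a position, with no count, signal, score or summit, and depth per sample is not given by it. Reads in repeated sequence and weaker binding are therefore missed, and wide peaks can hold several sites.

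The 26961 nuclear peaks were used. Midpoints were compared with every transcript start of GENCODE 44 lifted to GRCh37. A peak was at a TSS within 500 bp, and otherwise classed by midpoint as exonic, intronic, in another gene or intergenic. The canonical transcript is the one tagged so by Ensembl. Letters were searched in GRCh37 on both strands. Shares have 95% Wilson intervals for counting error. No test was possible without values per sample. Where it was counted, the percentage of all coding genes or nuclear peaks called by the same rule stands beside the count. Some counts have no such percentage. Among them are the classes of peak position other than at any TSS, the genes with a covered TSS group, and the peaks in canonical transcript spans. The genes and lists were chosen with earlier results of these data known. Genes named are the 9 members, those whose TSS had a counted peak, those nearest to an intergenic peak, hosts of a counted peak (named after the values were seen), the pathway list and the markers. One gene of the pathway list and 1 marker are not reported here and were left out of the counts. Assignment was tested on simulated data. Alternatives changed the TSS distance, transcript set, flank, overlap rule, peak width, part of the list and motif window. Python 3.11.15 was used with numba 0.67.0, pandas 2.3.3, pysam 0.24.0, scipy 1.17.1, matplotlib 3.10.9, numpy 2.4.6 and samtools 1.23.1.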

Additional observations from a re-analysis of the deposited data

How the results depend on the processing

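No paired analysis was possible because the list pools the 3 samples, and for the same reason no replicate could be left out. Of 77 values recomputed for 14 results, 51 moved by less than their counting interval or 1.5 times. Against the background, some sides turned: 4 of 9 genes with canonical transcripts (44.4%) is below the 46.7% of coding genes. The CDKN1A TSSs called rose from 0 to 5, and those of CDKN2A from 3 to 5, with the TSS base under a peak (added after the data were seen), with any overlap, or with 1500 bp; the INK4a TSSs were in none of these. Genes with a TSS peak went from 7 to 4 with canonical transcripts alone, and the other G1 genes from 20 to 10 in the first 13485 peaks of the list. What the order of the list means is not stated, so its first part need not hold the stronger peaks. The 54 peaks became 21 with flanks of 10 kb, 32 with 50 kb, 31 in the first 13485 peaks, 35 among peaks of at least the median width (969 bp) and 25 with the default domains of GREAT. With 10 kb flanks the shares were 42.9% at the gene's own TSS, 14.3% at another TSS, 33.3% intronic and 0% in another gene. With 50 kb 12.5% were in another gene, and among the wider peaks 5.71% were intronic and 2.86% intergenic. Wider windows hold more letters: in 600 bp and in whole peaks, AGGAA was in 90.7% and 98.1% (all nuclear peaks 87.5% and 95.3%, so the members turn from below to above the list), CCGGAA in 25.9% and 44.4% (26.0% and 37.4%, above it in whole peaks alone), and AP-1 in 20.4% and 29.6% (25.2% and 33.0%). Fewer peaks or more bases enter by construction.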
